A study of Homo sapiens with 8 samples.

Results

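Solute carriers are the largest group of membrane transporters in human cells, and the genes described here are the solute carriers other than the amino acid carriers around SLC7A5. The members were the genes whose symbol has the form SLC, a family number, A and a member number, and whose counts reached a level of 1 CPM (the count scaled to a library of 1000000) in at least 2 of the 8 libraries. Of 338 such symbols in a table of 54628 genes, 148 were under that level, 23 of them with no count in any library. Another 10 were left out by name: SLC7A5, SLC3A2, SLC7A1, SLC7A6, SLC7A11, SLC1A4, SLC1A5, SLC38A1, SLC38A2 and SLC6A9. The remaining 180 all entered the test across genes, and 167 of them were at or above the level in every library. SLC39A8 and SLC6A17 passed only through the senescent libraries with doxycycline. SLC4A3 passed only through the libraries with doxycycline, of both states. A rise of these genes in the libraries they passed through follows from how they were chosen, and they remain in the member and class counts below. Just inside the level were SLC25A6, SLC40A1 and SLC29A2, with a second-highest CPM of 1.19, 1.22 and 1.27, and just outside were SLC2A9, SLC23A3 and SLC39A4, with 0.849, 0.806 and 0.792.

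The cells were IMR90, a human lung fibroblast line, extended with hTERT and carrying the pInducer20 vector, from which doxycycline turns on YAP5SA with a Flag tag at its N-terminus. YAP5SA is a mutant of the transcriptional co-activator YAP that the Hippo kinases cannot inactivate, and YAP acts on genes mainly through the TEAD factors. Every group carried hTERT and the vector. Untreated proliferating cells formed the first group, and the second was proliferating cells given doxycycline at 1 ug/ml over 11 days. The third group was made senescent by bleomycin, a DNA-breaking drug, at 10 ug/ml over 24 h and was collected 9 days later, and the fourth received both treatments. Each group had 2 libraries of polyadenylated RNA from cultures kept in low oxygen. No group had doxycycline without the vector, so the drug and the transgene cannot be told apart, and the labels do not say whether the line was 1 clone. Nor do they state that replicates came from different cultures, and a p-value here therefore reflects spread among these libraries alone, which may be technical.

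Solute carriers move small molecules across membranes by binding them on one face and releasing them on the other, either down their own gradient or coupled to sodium, protons or an exchanged solute. Families differ in substrate and in place: glucose, lactate and many amino acids cross the plasma membrane, zinc and nucleotide sugars also cross the membranes of the Golgi and endoplasmic reticulum, lysosomal carriers return the products of digestion to the cytosol, and the SLC25 family sits almost wholly in the inner mitochondrial membrane. In fibroblasts the best-known members include the glucose carrier GLUT1 (SLC2A1), the lactate carriers MCT1 and MCT4 (SLC16A1 and SLC16A3), the phosphate carriers PiT1 and PiT2 (SLC20A1 and SLC20A2) and the adenine nucleotide carriers of the mitochondria. Cells that stop dividing in senescence commonly enlarge and keep a high secretory and lysosomal activity.

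Library totals ran from 33627708 to 39692162 counts. Over the 180 members, log2 CPM correlated at 0.994 to 0.997 between the 2 libraries of a group and at 0.886 to 0.979 between libraries of different groups, as a description across genes. No 2 libraries agreed within sampling noise (chi-square per degree of freedom 3.63 to 19.5). All 10 fibroblast markers exceeded 10 CPM in every library and summed to 12654 to 27215 CPM. The 5 epithelial markers summed to at most 1.25 CPM. The endothelial list summed to 45.8 to 155 CPM, nearly all of it TEK, with PECAM1, CDH5 and KDR at or below 0.112 CPM, and the leukocyte list to 52.2 to 169 CPM, nearly all of it CD68, with PTPRC at or below 0.252 CPM. YAP1 counts, which do not separate the native gene from the transgene, were 198 and 195 CPM in untreated proliferating cells, 190.2 and 238 with doxycycline, 190.3 and 223 in senescent cells and 291 and 287 in doxycycline-treated senescent cells. In bulk RNA, fewer cells of a type and less RNA per cell cannot be told apart.

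All CPM values below use library sizes scaled by the trimmed mean of M-values (TMM), and each value pair gives the 2 libraries of a group. A gene is said to be called, or to have risen or fallen, where the Benjamini-Hochberg adjusted p of edgeR's quasi-likelihood test over 17155 genes was under 0.05. Log2 changes carry the standard error (SE) of the fit. Scaling by library totals alone in place of TMM lowered the median change of all genes after bleomycin from 0.01 to -0.16 and raised that of doxycycline in senescent cells from -0.00 to 0.17, so changes there are relative to a median that depends on the scaling.

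Among the 180 members, 77 were higher and 51 lower in senescent than in proliferating cells without doxycycline. Over all genes 59.2% were called in that comparison, 29.8% higher and 29.4% lower, against 42.8% and 28.3% of the members. The median log2 change was 0.18 over the members and 0.01 over all genes. With doxycycline in both arms, bleomycin left 82 members higher (45.6%) and 42 lower (23.3%), beside 55.5% of all genes called, 26.8% higher and 28.7% lower, and the medians were 0.18 and -0.01. Those higher include SLC39A8 and SLC6A17, which met the level rule only through the doxycycline-treated senescent libraries. With total-count scaling the first comparison gave 60 members higher and 65 lower, a share of 48.0% higher among those called in place of 60.2%, while the second gave 81 and 40. Over all genes called in the first comparison, that share was 37.1% in place of 50.3%.

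Doxycycline called fewer members in proliferating cells, 33 higher (18.3%) and 25 lower (13.9%), beside a background of 23.0% of all genes, 12.6% higher and 10.4% lower. In senescent cells it left 60 higher (33.3%) and 41 lower (22.8%), where 46.3% of all genes were called, 22.6% higher and 23.8% lower. SLC4A3 and SLC6A17 are among the members higher there, and they met the level rule only through libraries with doxycycline. The member medians were 0.07 and 0.05, against 0.00 and -0.00 over all genes. Omitting untreated proliferating library 1 or 2 reduced the counts in proliferating cells to 21 higher and 10 lower or to 17 and 8, and omitting doxycycline-treated proliferating library 1 reduced those called lower to 13. Total-count scaling moved the senescent split to 79 higher and 26 lower, or 75.2% higher in place of 59.4%. Over all genes called, the share higher moved from 48.7% to 69.3%. The difference between the states was itself called for 43 members, 21 with a more positive and 22 with a more negative response in senescent cells, beside 19.9% of all genes, 8.08% and 11.8%. That upper count fell most without untreated proliferating library 1 or 2 or senescent library 2 with doxycycline. It was 36 with total-count scaling, or 70.6% of the members called, beside 70.5% of all genes called.

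The 2 bleomycin comparisons share no library. Overlaps were counted over the members and not over all genes, so the shares below show nothing particular to solute carriers. Of the members that rose, 59 rose in both (76.6% of the 77 and 71.95% of the 82), and of those that fell, 36 fell in both (70.6% of the 51 and 85.7% of the 42). SLC38A10 rose in one and fell in the other, and SLC24A5, SLC37A4, SLC39A10 and SLC4A5 fell without doxycycline and rose with it. Of these 5, SLC4A5 alone kept both calls whichever library was left out, and the call of SLC37A4 with doxycycline was lost without doxycycline-treated proliferating library 2 (0.0593) or doxycycline-treated senescent library 1 (0.0810), both adjusted p-values from edgeR's quasi-likelihood test. The 2 doxycycline comparisons are also separate: 26 members rose in both states (78.8% of the 33 and 43.3% of the 60) and 14 fell in both (56.0% of the 25 and 34.1% of the 41). Among the 26, SLC4A3 and SLC6A17 met the level rule only through libraries with doxycycline. SLC12A4 rose and then fell, while SLC25A40, SLC2A1, SLC36A4 and SLC37A4 fell in proliferating and rose in senescent cells. Each of those 5 lost its call in proliferating cells without at least 1 library: SLC12A4 without untreated proliferating library 1 (0.0618) or untreated proliferating library 2 (0.150), SLC36A4 without untreated proliferating library 1 (0.136), untreated proliferating library 2 (0.155) or doxycycline-treated proliferating library 1 (0.181), and SLC37A4 without untreated proliferating library 1 (0.159), untreated proliferating library 2 (0.246), doxycycline-treated proliferating library 1 (0.101), doxycycline-treated proliferating library 2 (0.118), doxycycline-treated senescent library 1 (0.0676) or doxycycline-treated senescent library 2 (0.0656) (edgeR adjusted p in brackets). The call of SLC36A4 in senescent cells was lost without senescent library 1 (0.156) or doxycycline-treated senescent library 2 (0.182).

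**Figure D1:**
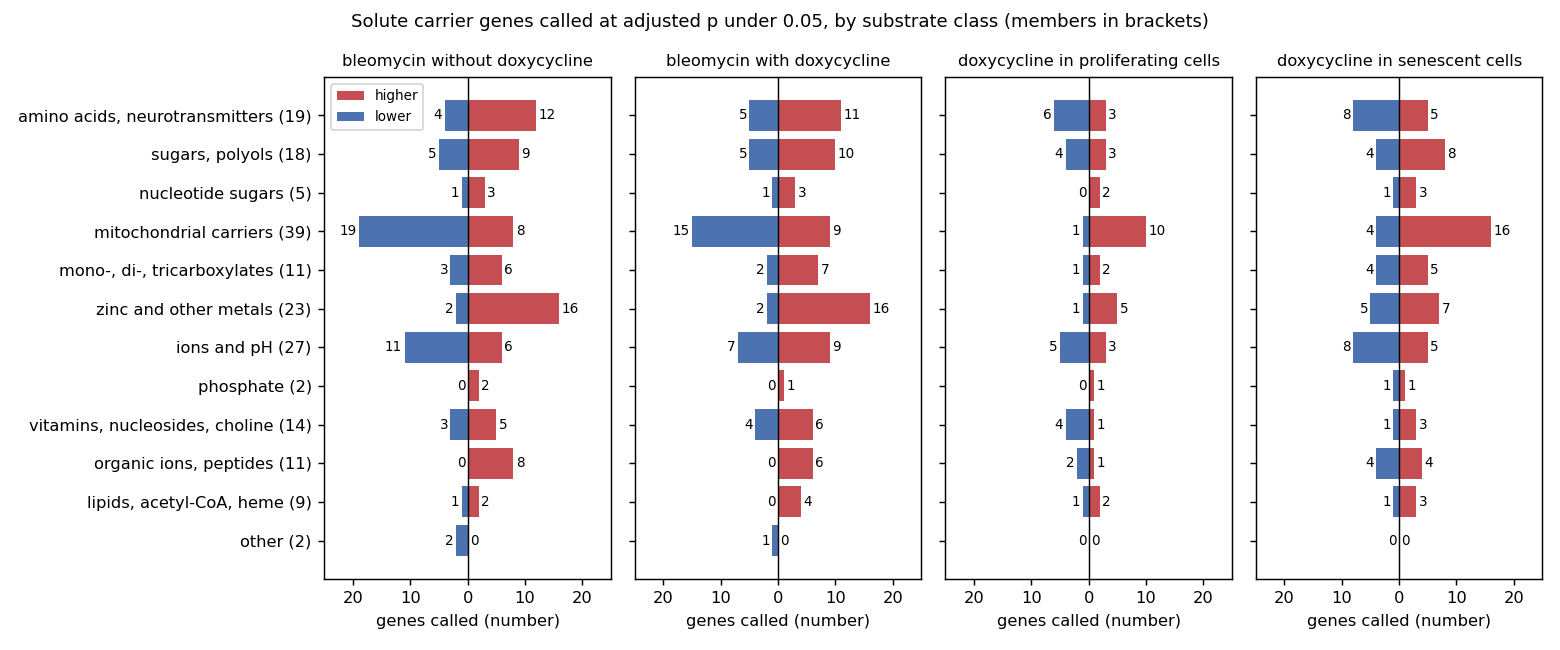
Number of solute carrier genes called higher (right, red) and lower (left, blue) in each of the 4 comparisons, by substrate class, with the number of members of the class in brackets. After bleomycin the 39 mitochondrial carriers lean to the left, with 19 lower and 8 higher, and the 23 metal carriers to the right, with 16 higher and 2 lower.

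Members summed to 7404 ± 53.6 CPM (mean ± SD, n = 2) in untreated proliferating cells, 7564 ± 30.4 with doxycycline, 9355 ± 124 in senescent cells and 9302 ± 253 in doxycycline-treated senescent cells. Genes were compared per kilobase of exon, with the length taken over the exons of all transcripts of a gene in GENCODE 29. That length can exceed the transcript made in these cells, so ranks between genes are rough. SLC25A3 counted as 8.896 kb and SLC25A5 as 1.5 kb. On that scale the adenine nucleotide carrier SLC25A5 stood highest in untreated proliferating cells at 137 CPM per kb, ahead of SLC2A1 at 117. The mitochondrial phosphate carrier SLC25A3 followed at 52.8 and the lactate carrier SLC16A3 at 47.3. In senescent cells SLC2A1 stood first at 189.8 CPM per kb, followed by SLC20A1 at 81.9, SLC16A3 at 70.1 and the zinc carrier SLC39A6 at 60.5, and SLC25A5 was at 52.1. With doxycycline in senescent cells SLC2A1 reached 252 CPM per kb and SLC25A5 84.0. Reads of SLC25A5 may be shared with its processed pseudogenes, and those of SLC2A3 with its near-identical copy SLC2A14.

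The members that rose most with doxycycline in both states were genes of low level. SLC6A17, a vesicular amino acid carrier best known from neurons, was at 0.0244 and 0 CPM in untreated proliferating cells, which is 1 count in all, and at 0.382 and 0.364 with doxycycline. Senescent libraries held 0.0560 and 0.122 CPM without and 2.70 and 4.78 with doxycycline, and the pairs did not overlap in either state. From the counts, the ratio in proliferating cells was 30.1, with an exact 95% interval of 4.98 to 1232 that covers counting error only. The gene met the level rule only through the doxycycline-treated senescent libraries, so its level there is given as a description with no test. SLC4A3, the anion exchanger AE3 of heart and brain, went from 0.561 and 0.276 to 1.27 and 1.505 CPM in proliferating cells and from 0.560 and 0.638 to 3.06 and 3.55 in senescent cells (log2 changes 1.72 and 2.46). This gene met the level rule only through the libraries with doxycycline, so a rise with doxycycline follows from how it was chosen. SLC16A12, a creatine carrier of the monocarboxylate family, went from 1.44 and 1.203 to 4.12 and 3.33 CPM and from 1.51 and 1.70 to 7.23 and 7.27, with the treated pair above the untreated one in both states (log2 change 2.17, SE 0.201, edgeR adjusted p = 4.34e-07 in senescent cells). SLC22A23, a carrier of the organic ion family with no settled substrate, rose both with doxycycline and with bleomycin: its 4 pairs were 0.757 and 0.526, 1.74 and 1.77, 1.596 and 1.88 and 4.46 and 5.45 CPM in the order of the groups. The difference in response between states was not called for SLC4A3, SLC16A12 or SLC22A23 (log2 differences 0.74, 0.68 and 0.06, adjusted p = 0.287, 0.108 and 0.929 by edgeR's quasi-likelihood test).

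The 250 bases before the start of these 4 genes are shown because they are the members with the largest rise in senescent cells. RefSeq lists them on GRCh38.p14, where the TEAD hexamer GGAATG and the AP-1 motif TGACTCA were searched on both strands (as CATTCC and TGAGTCA on the other) and matches are in capitals. SLC6A17 is at chr1:110150244-110150493 on the plus strand, SLC4A3 at chr2:219630807-219631056 on the plus strand, SLC16A12 at chr10:89535595-89535844 on the minus strand and SLC22A23 at chr6:3324151-3324400 on the minus strand, and the last 3 start sites lie inside the span RefSeq gives for the gene.
SLC6A17: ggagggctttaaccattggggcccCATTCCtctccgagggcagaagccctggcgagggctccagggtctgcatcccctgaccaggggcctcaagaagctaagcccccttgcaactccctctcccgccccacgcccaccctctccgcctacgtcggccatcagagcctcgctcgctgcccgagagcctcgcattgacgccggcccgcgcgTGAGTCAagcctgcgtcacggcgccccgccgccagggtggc
SLC4A3: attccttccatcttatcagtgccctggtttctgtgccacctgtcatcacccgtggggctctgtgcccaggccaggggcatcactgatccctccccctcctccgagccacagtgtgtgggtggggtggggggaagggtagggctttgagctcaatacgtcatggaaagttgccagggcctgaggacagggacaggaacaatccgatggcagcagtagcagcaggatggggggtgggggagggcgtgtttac
SLC16A12: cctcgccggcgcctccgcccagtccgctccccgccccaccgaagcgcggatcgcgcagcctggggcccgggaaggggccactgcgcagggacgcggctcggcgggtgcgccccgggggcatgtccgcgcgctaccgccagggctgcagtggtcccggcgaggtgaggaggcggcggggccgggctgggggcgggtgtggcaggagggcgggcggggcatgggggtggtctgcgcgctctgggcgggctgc
SLC22A23: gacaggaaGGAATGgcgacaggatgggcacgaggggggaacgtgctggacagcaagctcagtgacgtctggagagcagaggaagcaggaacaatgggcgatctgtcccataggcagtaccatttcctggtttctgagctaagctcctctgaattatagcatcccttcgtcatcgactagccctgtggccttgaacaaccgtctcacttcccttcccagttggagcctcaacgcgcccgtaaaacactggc
SLC6A17 held 1 TEAD hexamer, 226 bases before the start, and 1 AP-1 motif, 41 bases before it, and SLC22A23 held 1 TEAD hexamer at 242 bases. The windows of SLC4A3 and SLC16A12 held neither run of letters. Of 22114 genes with a single listed promoter, 12.1% held the hexamer and 4.36% the AP-1 motif, and of 94 members with one, 9.57% and 4.26% did. Among the 16 such members that rose with doxycycline in both states, 3 held the hexamer (SLC22A23, SLC25A23 and SLC6A17) and SLC6A17 held the AP-1 motif. SLC6A17 and SLC4A3, both in this set, met the level rule only through libraries with doxycycline. Whether the set holds either motif more often than other genes was not tested.

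**Figure D2:**
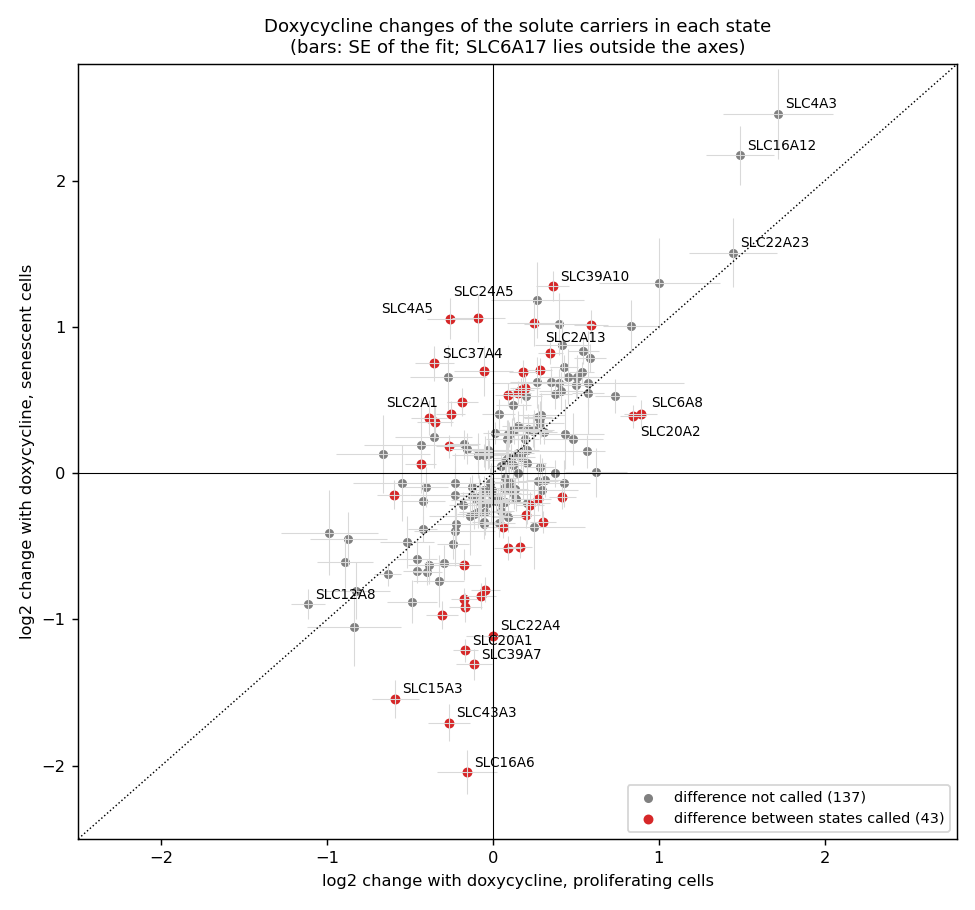
Log2 change with doxycycline in proliferating cells (horizontal) against that in senescent cells (vertical) for 179 of the 180 members, with the SE of the fit as bars, the dotted line marking equal changes and red points those whose difference between states was called. SLC16A6, SLC43A3 and SLC15A3 lie lowest, and SLC4A3 and SLC16A12 lie at the upper right, above the line of equal changes.

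Among the 18 sugar and polyol carriers, senescent cells had more transcript of the main glucose carriers and of the myo-inositol carrier SLC5A3. The counts were 9 higher and 5 lower without doxycycline and 10 and 5 with it, and the median log2 change was 0.47 and 0.38. SLC2A1, the constitutive glucose carrier GLUT1 at chr1:42925353-42958868, stood at 547 and 554 CPM in untreated proliferating cells, 469.7 and 453 with doxycycline, 952 and 842 in senescent cells and 1179 and 1198 in doxycycline-treated senescent cells. Both senescent groups lay above both proliferating ones, and the change with bleomycin was 1.63-fold without and 2.58-fold with doxycycline (log2 change 0.70, SE 0.0871, edgeR adjusted p = 4.35e-06, and log2 change 1.36, SE 0.0883, edgeR adjusted p = 3.74e-09). Doxycycline went with a higher level in senescent cells (log2 change 0.41, SE 0.0868) and a lower one in proliferating cells (-0.25, SE 0.0869), and that difference between states was called (log2 difference 0.66, SE 0.123, edgeR adjusted p = 0.00154). The fall in proliferating cells was not called without any 1 of the 4 proliferating or the 2 doxycycline-treated senescent libraries (adjusted p = 0.0575 to 0.267, edgeR's quasi-likelihood test).

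SLC2A3, the high-affinity glucose carrier GLUT3, rose in all 4 comparisons: the pairs were 77.0 and 73.2 CPM in untreated proliferating cells, 93.6 and 88.9 with doxycycline, 128 and 119.6 in senescent cells and 204 and 201 in doxycycline-treated senescent cells. Its rise with doxycycline in proliferating cells was lost without untreated proliferating library 1 or 2 (edgeR adjusted p = 0.0821 and 0.193), and the pairs did not overlap in any of the comparisons. SLC2A10, the carrier GLUT10, rose with bleomycin from 74.9 and 73.5 to 127 and 125 CPM and fell with doxycycline in both states, to 52.8 and 55.3 in proliferating and 73.2 and 85.1 CPM in senescent cells. SLC5A3, which takes up the osmolyte myo-inositol with sodium, went from 67.6 and 68.2 CPM in untreated proliferating to 216 and 256 in senescent cells (3.48-fold, log2 change 1.80, SE 0.107, edgeR adjusted p = 1.42e-09), and from 58.5 and 71.9 to 175 and 197 with doxycycline. The second myo-inositol carrier, SLC2A13, which is coupled to protons, rose with bleomycin and again with doxycycline in senescent cells: 5.91 and 5.86 CPM in untreated proliferating cells, 5.80 and 8.13 with doxycycline, 8.65 and 9.91 in senescent cells and 16.5 and 21.3 in doxycycline-treated senescent cells. Its response differed between states by 0.77 on the log2 scale (edgeR adjusted p = 0.0268), a call lost without any 1 of 5 libraries: untreated proliferating 1 or 2, doxycycline-treated proliferating 1, senescent 1 or doxycycline-treated senescent 2 (adjusted p = 0.0799, 0.0788, 0.0833, 0.103 and 0.150).

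Carriers of glucose-6-phosphate fell after bleomycin without doxycycline. SLC37A2, an exchanger of the endoplasmic reticulum, was at 6.86 and 6.19 CPM in untreated proliferating and 2.58 and 2.25 in senescent cells, and at 6.30 and 6.63 and 2.60 and 1.79 with doxycycline (log2 changes -1.43 and -1.55). SLC37A4, the glucose-6-phosphate carrier that feeds glucose-6-phosphatase, read 12.8 and 13.3 CPM in untreated proliferating cells, 10.3 and 10.0 with doxycycline, 7.03 and 8.72 in senescent cells and 13.5 and 12.9 in doxycycline-treated senescent cells. Senescent cells without doxycycline were the low group, and in senescent cells the doxycycline pair lay above the untreated pair (log2 change 0.75, SE 0.122, edgeR adjusted p = 0.000124). SLC45A1, a proton-linked sugar carrier, fell with doxycycline in proliferating cells from 5.54 and 4.48 to 3.32 and 2.35 CPM (edgeR adjusted p = 0.00828, and 0.102 and 0.0739 without untreated library 1 or doxycycline-treated library 2, where the call was lost). The renal glucose carrier SLC5A2 was called in none of the 4 comparisons and stayed between 18.7 and 24.0 CPM over the 8 libraries, but 31.1% of its exon bases are shared with C16orf58.

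Of 13 listed genes of glycolysis and pyruvate use, 8 were higher and 4 lower after bleomycin without doxycycline, and 6 and 4 with it. Over all genes 29.8% were higher and 29.4% lower in the first comparison, and 26.8% and 28.7% in the second. The shares over all genes in each comparison are also the background for the counts of the other lists and of the substrate classes. HK2, which phosphorylates glucose on entry, rose from 86.7 and 79.1 to 187 and 183 CPM. TXNIP, which removes GLUT1 from the membrane and is not of that list, rose from 267 and 264 to 816 and 775 CPM. MPC1, a subunit of the mitochondrial pyruvate carrier, fell from 18.4 and 17.4 to 6.41 and 7.87 CPM. Doxycycline left 3 of the 13 higher and 2 lower in proliferating cells, and 2 and 3 in senescent cells.

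The 11 carriers of mono-, di- and tricarboxylates included the largest change with bleomycin of any member in the comparison without doxycycline. SLC16A6, the monocarboxylate family member MCT7 at chr17:68267026-68291479, stood at 4.15 and 4.58 CPM in untreated proliferating cells, 2.94 and 4.81 with doxycycline, 42.0 and 37.3 in senescent cells and 9.65 and 9.57 in doxycycline-treated senescent cells. Senescent cells without doxycycline stood apart from the 3 other groups, 9.09-fold above untreated proliferating cells (log2 change 3.18, SE 0.162, edgeR adjusted p = 5.54e-10). Doxycycline in senescent cells went with a level 4.13-fold lower (log2 change -2.05, SE 0.151, edgeR adjusted p = 8.10e-08), and the proliferating pairs overlapped. That response differed between states by -1.89 (SE 0.233, edgeR adjusted p = 8.69e-05).

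The lactate carriers SLC16A3 and SLC16A1 rose with bleomycin, while SLC16A7 (MCT2), which carries lactate and pyruvate with high affinity, fell from 7.71 and 8.14 to 3.56 and 5.503 CPM without doxycycline. SLC16A3 (MCT4), the exporter of lactate from glycolytic cells and the class member with the most counts, went from 444 and 407 to 679 and 581 CPM without doxycycline (log2 change 0.57, SE 0.0949, edgeR adjusted p = 9.39e-05) and from 384 and 408 to 534 and 581 with it. Doxycycline was not called for it in either state (log2 changes -0.11 and -0.18). SLC16A1 (MCT1) rose in each comparison, with pairs of 68.9 and 70.7 CPM in untreated proliferating cells, 104 and 98.6 with doxycycline, 108 and 109.7 in senescent cells and 171 and 180.2 in doxycycline-treated senescent cells, and no 2 groups compared overlapped. Per kilobase, SLC16A3 exceeded SLC16A1 in every group, 47.3 against 13.1 CPM per kb in untreated proliferating and 62.0 against 33.0 in doxycycline-treated senescent cells. BSG, the subunit that brings both to the membrane, was at 521 and 491 CPM in untreated proliferating and 692 and 621 in senescent cells and rose with bleomycin.

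The remaining family members went both ways. SLC16A14, whose substrate is not settled, fell in senescent cells from 8.59 and 8.72 to 3.08 and 2.74 CPM and from 6.91 and 6.87 to 1.86 and 1.62 with doxycycline, the largest fall of any member in the latter comparison (log2 change -1.98). SLC16A4, also without a settled substrate, rose from 28.3 and 26.7 to 61.6 and 55.3 CPM. SLC13A3, the sodium-coupled dicarboxylate carrier, was at 0.366 and 0.476 CPM in untreated proliferating cells and at 1.94 and 3.05 in senescent cells with doxycycline. In all, the class had 6 higher and 3 lower without doxycycline and 7 and 2 with it.

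**Figure D3:**
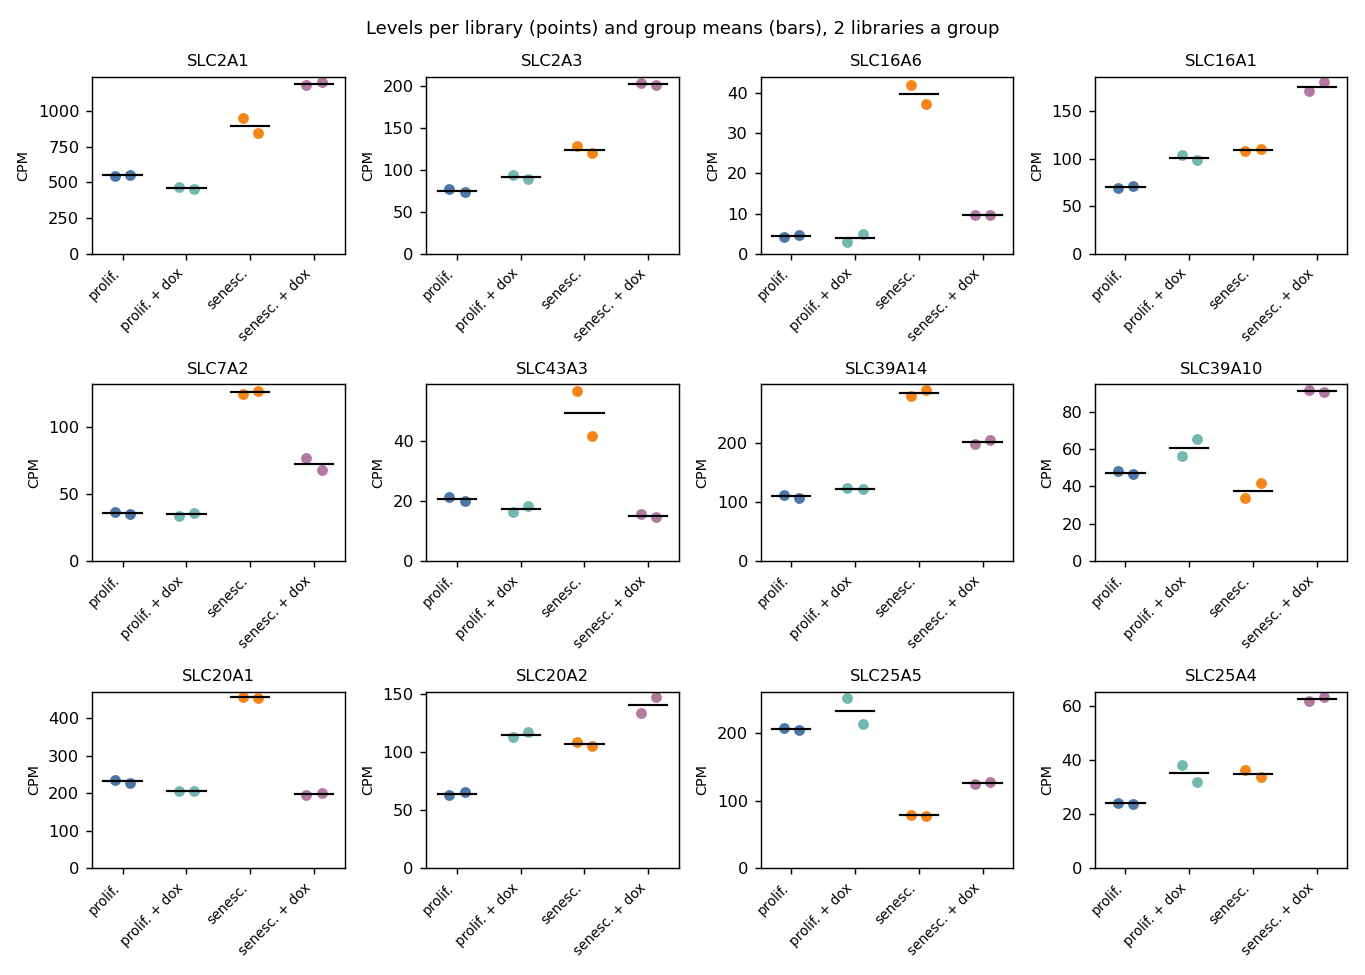
CPM of 12 solute carriers in each of the 8 libraries (points), with the mean of each group of 2 as a bar, on linear axes that start at 0. SLC2A1, SLC2A3 and SLC16A1 stand highest in senescent cells with doxycycline, while SLC16A6, SLC7A2, SLC43A3, SLC39A14 and SLC20A1 stand highest in senescent cells without it.

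Of the 19 amino acid and neurotransmitter carriers, 12 were higher and 4 lower in senescent cells without doxycycline, and 11 and 5 with it (median log2 changes 0.63 and 0.33). SLC7A2, the cationic carrier CAT2 that imports arginine, went from 36.9 and 35.2 CPM in untreated proliferating to 125 and 127 in senescent cells (3.498-fold, log2 change 1.81, SE 0.0853, edgeR adjusted p = 6.36e-11). With doxycycline it read 33.7 and 36.2 CPM in proliferating and 77.3 and 68.0 in senescent cells, so the treated senescent pair lay between the other senescent pair and both proliferating pairs (log2 change -0.80 with doxycycline, edgeR adjusted p = 1.50e-06). SLC43A3, known as a carrier of purine nucleobases, was also highest in senescent cells without doxycycline: 21.5 and 20.1 CPM in untreated proliferating cells, 16.3 and 18.3 with doxycycline, 56.9 and 41.9 in senescent cells and 15.7 and 14.6 in doxycycline-treated senescent cells. The 2 senescent libraries without doxycycline differed from each other more than in the other groups, yet both lay above all 6 others (log2 change 1.25, SE 0.124, edgeR adjusted p = 5.97e-07, and log2 change -1.71, SE 0.127, edgeR adjusted p = 6.83e-08 for doxycycline). Of its exon bases, 29.9% are shared with AP000781.2.

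SLC6A8, the creatine carrier, rose in all 4 comparisons, with pairs of 21.7 and 19.6 CPM in untreated proliferating cells, 37.6 and 38.8 with doxycycline, 73.9 and 59.4 in senescent cells and 86.8 and 89.6 in doxycycline-treated senescent cells. The rise with doxycycline was 1.85-fold in proliferating and 1.32-fold in senescent cells (log2 changes 0.89 and 0.40). SLC6A6, the taurine carrier and the class member with the most counts, read 111 and 118 CPM in untreated proliferating cells, 69.7 and 93.3 with doxycycline, 197 and 179 in senescent cells and 89.6 and 115 in doxycycline-treated senescent cells. It rose with bleomycin without doxycycline and fell with doxycycline in senescent cells (log2 changes 0.72 and -0.88). The fall in proliferating cells (-0.49, edgeR adjusted p = 0.0420) was lost without untreated proliferating library 1 or 2, doxycycline-treated proliferating library 1 or either senescent library (0.101, 0.192, 0.167, 0.100 and 0.100).

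The glutamate carriers rose with bleomycin, SLC1A1 (EAAT3) from 27.0 and 25.4 to 39.7 and 41.4 CPM and SLC1A2 (EAAT2) from 1.64 and 2.25 to 3.33 and 5.20. SLC38A6, a member of the sodium-coupled neutral carrier family, fell from 21.8 and 20.9 to 9.24 and 9.33 CPM and from 19.9 and 19.3 to 8.51 and 8.14 with doxycycline (log2 changes -1.201 and -1.23). Its changes with doxycycline were not called. SLC38A10 was the member of this class whose bleomycin change turned: it rose from 99.3 and 93.9 to 120.2 and 129.8 CPM without doxycycline and fell from 79.7 and 92.2 to 59.8 and 72.6 with it. The first change was not called with total-count scaling (edgeR adjusted p = 0.0973), and the second not without senescent library 1 with doxycycline (0.106). Carriers of the lysosomal membrane were mixed: SLC38A9, the arginine sensor upstream of mTORC1, rose with bleomycin from 13.1 and 13.9 to 19.1 and 22.2 CPM, as did SLC36A1 from 21.6 and 21.8 to 27.0 and 32.9. SLC66A1, which exports cationic amino acids, fell from 22.0 and 22.7 to 14.6 and 12.8. Of the 10 amino acid carriers set aside, SLC7A5 stood at 188 and 186 CPM in untreated proliferating cells and 1666 and 1705 in senescent cells with doxycycline, and its partner SLC3A2 at 118 and 114 and 286 and 293.

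Metal carriers mostly rose after bleomycin, with 16 of 23 higher and 2 lower both without and with doxycycline (median log2 changes 0.42 and 0.58). With total-count scaling the first count was 12 higher and 3 lower. SLC39A14 (ZIP14), which imports zinc, iron and manganese and has the most counts of the class, went from 112 and 107 CPM in untreated proliferating to 281 and 291 in senescent cells (2.61-fold, log2 change 1.38, SE 0.0751, edgeR adjusted p = 3.41e-10). With doxycycline it was 124 and 121 CPM in proliferating and 198 and 205 in senescent cells, so the senescent pair with doxycycline was the lower of the senescent ones (log2 change -0.51, SE 0.0737, edgeR adjusted p = 4.58e-05). Its relatives SLC39A6 and SLC39A9, zinc importers of the plasma membrane and the Golgi region, also rose with bleomycin, from 121 and 120.2 to 225 and 221 and from 59.97 and 60.5 to 105 and 111 CPM. SLC39A8 (ZIP8) rose from a low level, 0.0732 and 0.175 to 0.700 and 1.003 CPM.

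SLC39A7 (ZIP7), which releases zinc from the endoplasmic reticulum, was high in senescent cells without doxycycline alone: 25.3 and 23.3 CPM in untreated proliferating cells, 20.9 and 24.1 with doxycycline, 64.6 and 53.1 in senescent cells and 23.2 and 24.3 in doxycycline-treated senescent cells. The doxycycline-treated senescent pair lay within the range of the proliferating libraries and below the untreated senescent pair (log2 change -1.31, SE 0.106, edgeR adjusted p = 1.02e-07), and its response differed between states by -1.19 on the log2 scale (SE 0.151). The gene lies in the major histocompatibility region, where alternate sequences of the genome can take reads. SLC39A11 (ZIP11) was also highest in senescent cells without doxycycline, with 20.6 and 19.4 CPM in untreated proliferating cells, 16.1 and 16.2 with doxycycline, 33.2 and 34.6 in senescent cells and 16.1 and 18.6 in doxycycline-treated senescent cells. Its fall with doxycycline in proliferating cells was lost without any 1 of the 4 proliferating libraries (edgeR adjusted p = 0.0687 to 0.257).

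SLC39A10 (ZIP10), a zinc importer of the plasma membrane at chr2:195613029-195737700, went the opposite way and was highest in senescent cells with doxycycline: 48.4 and 46.4 CPM in untreated proliferating cells, 56.4 and 65.2 with doxycycline, 33.5 and 41.6 in senescent cells and 91.8 and 90.4 in doxycycline-treated senescent cells. The rise with doxycycline was 2.43-fold in senescent cells (log2 change 1.28, SE 0.101, edgeR adjusted p = 7.43e-08) and 1.28-fold in proliferating cells, where the call was lost without untreated library 1 or 2 or doxycycline-treated library 2 (edgeR adjusted p = 0.0721, 0.137 and 0.106). Its fall with bleomycin without doxycycline was lost without untreated proliferating library 1 or senescent library 1 (0.0652 and 0.145). The difference between states was called (log2 difference 0.92, SE 0.141, edgeR adjusted p = 0.000368). SLC30A1 (ZnT1), the zinc exporter of the plasma membrane, rose with doxycycline in both states, from 30.4 and 30.1 to 43.5 and 47.2 CPM and from 31.8 and 38.8 to 59.99 and 61.9. Metallothioneins bind zinc, and MTF1 is the zinc sensor that drives their genes and SLC30A1. Of the 4 genes of that list tested, 3 rose with bleomycin without doxycycline and 4 fell with doxycycline in senescent cells, and MT2A went from 964 and 763 to 494 and 492 CPM there.

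For iron, SLC11A2 (DMT1), which imports ferrous iron, rose from 38.9 and 40.2 to 105 and 98.6 CPM with bleomycin and was at 56.6 and 55.6 in senescent cells with doxycycline (log2 changes 1.36 and -0.86). The exporter ferroportin, SLC40A1, was between 0.530 and 1.203 CPM over the 8 libraries. Of 7 other iron genes, 3 rose and 3 fell with bleomycin without doxycycline, and 1 rose and 4 fell with doxycycline in senescent cells. The transferrin receptor TFRC was at 127 and 125 CPM in untreated proliferating, 219 and 266 in senescent and 181 and 186 in doxycycline-treated senescent cells, and it rose and fell as SLC11A2 did in those comparisons. Copper uptake genes rose in senescent cells: SLC31A1 (CTR1) from 72.3 and 70.1 to 98.2 and 102 CPM, and SLC31A2 (CTR2) from 23.3 and 20.3 to 40.9 and 37.5 with doxycycline in both arms. SLC31A2 also rose with doxycycline in both states (log2 changes 0.59 and 1.01), but 63.1% of its exon bases are shared with FKBP15. SLC41A2, a magnesium carrier, rose from 1.71 and 1.55 to 7.22 and 6.90 CPM with bleomycin (4.32-fold), and its relative SLC41A1 rose in both bleomycin comparisons.

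Among mitochondrial carriers, more fell than rose after bleomycin: 19 of 39 were lower and 8 higher without doxycycline, and 15 and 9 with it. The median log2 change was -0.30 and -0.16. With doxycycline more were called higher than lower, 10 and 1 in proliferating and 16 and 4 in senescent cells. Over all genes 12.6% were higher and 10.4% lower in proliferating cells, and 22.6% and 23.8% in senescent cells. Total-count scaling gave 25 and 1 in senescent cells, where it also moved the share higher among all genes called from 48.7% to 69.3%. As a summed level the class was 1765 ± 3.88 CPM in untreated proliferating cells, 1992 ± 130.4 with doxycycline, 1416 ± 0.0318 in senescent cells and 1739.6 ± 14.8 in doxycycline-treated senescent cells (mean and SD, n = 2). The sum was thus lowest in the senescent libraries without doxycycline, and that of the other senescent pair lay just below the untreated proliferating one. SLC25A3 and SLC25A5, described next, made up most of its fall with bleomycin without doxycycline, so the sum says little of the other carriers.

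SLC25A3, which brings phosphate in for ATP synthesis, went from 468 and 471 CPM to 269.98 and 276 with bleomycin (log2 change -0.78, SE 0.0977, edgeR adjusted p = 4.79e-06), and was at 599.6 and 478 and 394 and 394 with doxycycline. The adenine nucleotide carriers exchange ADP for ATP, and 2 of them went opposite ways. SLC25A5 (ANT2), the form of dividing cells, at chrX:119468444-119471396, fell from 207 and 204 to 79.0 and 77.2 CPM with bleomycin and was at 253 and 213 and 125 and 127 with doxycycline (2.63-fold lower, log2 change -1.40, SE 0.0866, edgeR adjusted p = 1.60e-09). SLC25A4 (ANT1), the form of muscle and other non-dividing tissue, rose from 24.2 and 23.9 to 36.2 and 33.8 CPM with bleomycin and, in senescent cells, to 61.8 and 63.4 with doxycycline (log2 changes 0.54, and 0.84 for doxycycline in senescent cells). Per kilobase, SLC25A5 remained the higher of the pair in each group, 137 against 4.97 CPM per kb in untreated proliferating and 84.0 against 12.9 in doxycycline-treated senescent cells. The exon lengths used were 1.5 kb for SLC25A5 and 4.844 kb for SLC25A4, so the size of that gap is rough. The related SLC25A6 has copies on X and Y and its reads can be lost between them, so its level of 0.669 to 1.32 CPM is uncertain.

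SLC25A10, which exchanges malate and succinate for phosphate, had the largest fall of the class, 13.7 and 13.1 to 4.26 and 4.32 CPM (3.12-fold lower, log2 change -1.64, SE 0.128, edgeR adjusted p = 2.39e-08). Doxycycline was called for it in neither state. Of its exon bases, 46.6% are shared with AC139530.2. SLC25A11, the oxoglutarate-malate carrier, fell from 60.8 and 64.5 to 34.9 and 34.3 CPM, and SLC25A22, a glutamate carrier, from 35.5 and 33.3 to 19.9 and 20.4. SLC25A13, an aspartate-glutamate carrier of the malate-aspartate shuttle, fell from 25.9 and 24.9 to 18.4 and 20.2. SLC25A35, without a settled substrate and with 33.2% of its exon bases shared with RANGRF, fell from 37.1 and 34.1 to 15.4 and 14.4. The glutathione carriers SLC25A39 and SLC25A40 both fell: SLC25A40 read 19.3 and 22.0 CPM in untreated proliferating cells, 14.7 and 16.8 with doxycycline, 7.39 and 7.69 in senescent cells and 9.65 and 9.98 in doxycycline-treated senescent cells. With doxycycline SLC25A40 rose in senescent and fell in proliferating cells, but the first call was lost without senescent library 1 or doxycycline-treated senescent library 2 (edgeR adjusted p = 0.0831 and 0.0830) and the second without untreated proliferating library 2 or doxycycline-treated proliferating library 1 (0.256 and 0.130). The difference itself was called in each such omission (log2 difference 0.77, SE 0.160, edgeR adjusted p = 0.00343 in all libraries).

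A smaller set of mitochondrial carriers rose with bleomycin, and 6 did so with and without doxycycline: SLC25A4, SLC25A23, SLC25A26, SLC25A30, SLC25A36 and SLC25A37. Both calls of SLC25A30 were lost in several omissions, at edgeR adjusted p = 0.115 to 0.152 without untreated proliferating library 1 or 2 or senescent library 2, and 0.0623 to 0.387 without any proliferating library or doxycycline-treated senescent library 1. SLC25A23, a calcium-regulated exchanger of ATP-magnesium for phosphate, rose from 7.47 and 8.42 to 20.8 and 19.3 CPM with bleomycin and to 12.7 and 13.7 with doxycycline alone. Its relative SLC25A25 fell with bleomycin (17.7 and 16.2 to 10.9 and 12.7 CPM) and rose with doxycycline in proliferating cells to 23.3 and 26.9. The pyrimidine nucleotide carriers also split. SLC25A36 rose in each comparison, with 50.3 and 49.8 CPM in untreated proliferating cells, 62.4 and 64.9 with doxycycline, 81.0 and 84.4 in senescent cells and 147 and 146 in doxycycline-treated senescent cells, though its rise with doxycycline in proliferating cells was lost without untreated library 2 (edgeR adjusted p = 0.0590). SLC25A33 fell with bleomycin, 6.03 and 7.89 to 3.36 and 3.10 CPM, and rose with doxycycline to 14.1 and 10.7 in proliferating and 6.01 and 6.99 in senescent cells (log2 change 1.01, SE 0.182, edgeR adjusted p = 0.000329 in the latter). SLC25A37 (mitoferrin-1), which brings iron in for heme and iron-sulfur clusters, rose from 52.3 and 53.1 to 127 and 119 CPM and was at 68.0 and 69.6 in senescent cells with doxycycline. Its relative SLC25A28 was between 18.0 and 24.6 over the 8 libraries. SLC25A38, which brings in glycine for heme synthesis, rose with doxycycline in both states (log2 changes 0.57 and 0.55) and was not called after bleomycin. SLC25A18, a second glutamate carrier, rose with doxycycline in senescent cells from 3.58 and 3.34 to 6.82 and 7.24 CPM.

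**Figure D4:**
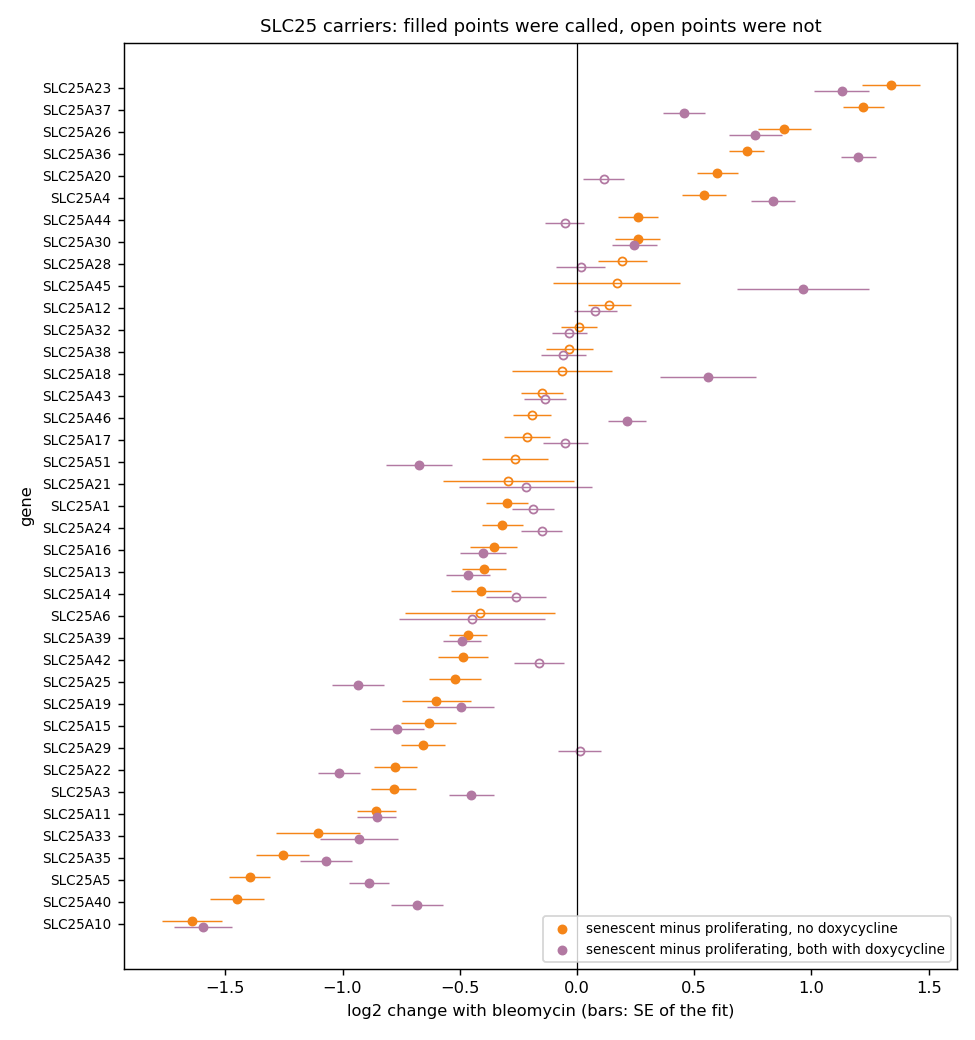
Log2 change with bleomycin of the 39 mitochondrial carriers, without doxycycline (orange) and with it (purple), ordered by the first, with the SE of the fit as bars and filled points for called changes. SLC25A10, SLC25A40 and SLC25A5 lie farthest left and SLC25A23 and SLC25A37 farthest right, and 19 carriers were lower and 8 higher without doxycycline.

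The phosphate carriers SLC20A1 (PiT1) and SLC20A2 (PiT2) take up phosphate with sodium, and both rose with bleomycin without doxycycline, while in senescent cells with doxycycline the first fell and the second rose. SLC20A1, at chr2:112645939-112663825, read 235 and 228 CPM in untreated proliferating cells, 207 and 206 with doxycycline, 458 and 455 in senescent cells and 194 and 199.8 in doxycycline-treated senescent cells. It rose in senescent cells without doxycycline (1.97-fold, log2 change 0.98, SE 0.0755, edgeR adjusted p = 2.12e-08), and with doxycycline the senescent pair lay below the untreated proliferating one (log2 change -1.21, SE 0.0760, edgeR adjusted p = 5.85e-09 for doxycycline in senescent cells). SLC20A2 rose in all 4 comparisons, with 63.0 and 65.4 CPM in untreated proliferating cells, 113 and 117 with doxycycline, 109 and 106 in senescent cells and 134 and 148 in doxycycline-treated senescent cells, and most with doxycycline in proliferating cells (1.80-fold, log2 change 0.85, SE 0.0785, edgeR adjusted p = 1.18e-06). Its rise with bleomycin with doxycycline was lost without doxycycline-treated senescent library 2 (0.0853) by edgeR's test. Per kilobase SLC20A1 was the higher in each group, 81.9 against 16.2 CPM per kb in senescent cells without and 35.3 against 21.2 with doxycycline. The phosphate exporter XPR1 was called in none of the 4 comparisons, at 69.5 and 69.0 CPM in untreated proliferating and 71.1 and 71.2 in doxycycline-treated senescent cells.

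Of the 27 carriers of inorganic ions, 6 were higher and 11 lower with bleomycin without doxycycline, and 9 and 7 with it. Sodium-proton exchangers raise cytosolic and organelle pH. SLC9A7 (NHE7), of the trans-Golgi network, rose from 38.6 and 38.1 to 104 and 114 CPM (2.85-fold, log2 change 1.51, SE 0.0818, edgeR adjusted p = 3.33e-10) and to 51.7 and 50.7 with doxycycline alone. SLC9A3 (NHE3), the exchanger of kidney and gut, fell with doxycycline in proliferating cells, 9.91 and 9.44 to 4.41 and 5.97 CPM (log2 change -0.89), and 41.9% of its exon bases are shared with PP7080.

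Bicarbonate carriers were mixed. SLC4A8, a sodium-driven chloride-bicarbonate exchanger, fell in senescent cells from 7.20 and 8.22 to 3.42 and 3.71 CPM and from 5.18 and 5.58 to 2.75 and 2.38 with doxycycline (log2 changes -1.11 and -1.07). Its fall with doxycycline in proliferating cells had an edgeR adjusted p of 0.0302, which became 0.0862, 0.291 and 0.126 without untreated library 1, untreated library 2 or doxycycline-treated library 1, and 0.0527 with DESeq2. SLC4A2 (AE2), the chloride-bicarbonate exchanger with the most counts of the class, fell from 152 and 147 to 118 and 122 CPM with bleomycin. SLC4A5, a sodium-bicarbonate cotransporter that shares 47.5% of its exon bases with AC006030.1, had the largest positive difference in response between states: 8.54 and 9.02 CPM in untreated proliferating cells, 8.30 and 6.38 with doxycycline, 5.15 and 5.23 in senescent cells and 10.6 and 11.0 in doxycycline-treated senescent cells. Senescent cells with doxycycline were the highest group and senescent cells without it the lowest (log2 change 1.06, SE 0.142, edgeR adjusted p = 2.13e-05, and log2 difference 1.32, SE 0.199, edgeR adjusted p = 0.000315 for the difference between states).

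Calcium and chloride carriers followed no common direction. SLC24A5, a potassium-dependent sodium-calcium exchanger of pigment granules, read 5.15 and 6.31 CPM in untreated proliferating cells, 4.88 and 5.87 with doxycycline, 4.48 and 3.92 in senescent cells and 9.17 and 8.39 in doxycycline-treated senescent cells, and the doxycycline pair in senescent cells lay above all 6 other libraries (log2 change 1.06, SE 0.163, edgeR adjusted p = 7.66e-05). It shares 32.9% of its exon bases with MYEF2, and its fall with bleomycin without doxycycline was lost without untreated proliferating library 2 or senescent library 2 (edgeR adjusted p = 0.274 and 0.151). SLC8A1 (NCX1), the main sodium-calcium exchanger, fell with doxycycline in proliferating cells from 42.2 and 41.0 to 28.3 and 26.6 CPM and with bleomycin to 31.3 and 31.3, while the doxycycline-treated senescent pair of 25.4 and 31.2 was not called against the untreated one. SLC12A8, a cation-chloride family member, had the largest fall with doxycycline in proliferating cells, 26.0 and 25.9 to 11.6 and 12.3 CPM (2.17-fold lower, log2 change -1.12, SE 0.101, edgeR adjusted p = 8.45e-07). It fell in senescent cells too, 20.2 and 20.8 to 11.8 and 10.2. SLC12A2 (NKCC1), which loads cells with chloride, fell with bleomycin from 49.2 and 48.9 to 33.4 and 38.5 CPM. SLC12A4 (KCC1), which lets it out, rose from 91.8 and 87.4 to 123 and 128. Of 10 kinases and pumps of ion transport that were tested, 5 rose and 4 fell with bleomycin without doxycycline, and 1 rose and 5 fell with doxycycline in senescent cells. WNK4, a kinase that acts on these cotransporters, was the riser, at 7.22 and 6.81 CPM without and 24.1 and 22.9 with doxycycline in senescent cells.

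Among the 14 carriers of vitamins, nucleosides and choline, 5 were higher and 3 lower with bleomycin without doxycycline, and 6 and 4 with it. With total-count scaling the first count was 2 higher and 5 lower. The main folate and biotin carriers fell in senescent cells and 2 choline-like carriers rose. Of the others, SLC44A1 read 4.17 CPM per kb in untreated proliferating and 3.68 in senescent cells. SLC46A1 read 1.42 and 1.87, with 56.4% of its exon bases shared with SARM1. SLC19A1, the reduced folate carrier, read 149 and 156 CPM in untreated proliferating cells, 114 and 117 with doxycycline, 80.8 and 71.1 in senescent cells and 44.2 and 50.9 in doxycycline-treated senescent cells, lower with bleomycin and lower again with doxycycline in both states (log2 changes -1.002 and -1.28 with bleomycin, -0.40 and -0.68 with doxycycline). The call in proliferating cells was lost without untreated library 2 (edgeR adjusted p = 0.0580). SLC5A6 imports biotin and pantothenate with sodium. It fell from 32.0 and 30.6 to 17.8 and 17.9 CPM and from 36.5 and 36.6 to 15.2 and 15.5 with doxycycline (log2 change -1.25, SE 0.0858, edgeR adjusted p = 7.38e-09 in the latter). SLC52A2, a riboflavin carrier, fell from 63.2 and 57.8 to 41.7 and 43.5 CPM, and 34.7% of its exon bases are shared with FBXL6. SLC44A2, a choline-like carrier and the member of the class with the most counts, rose from 202 and 205 to 279.7 and 265. Its relative SLC44A3, at low level, rose from 1.37 and 1.23 to 5.46 and 5.90 (4.37-fold). SLC46A3, a lysosomal carrier, rose with doxycycline in senescent cells from 4.14 and 5.32 to 8.07 and 7.27 CPM (log2 change 0.70), a call lost without senescent library 1 (edgeR adjusted p = 0.0503). The nucleoside carrier SLC29A1 (ENT1) was at 35.2 and 35.9 CPM in untreated proliferating and 28.2 and 27.0 in doxycycline-treated senescent cells.

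Among the 11 carriers of organic ions, amines, peptides and drugs, 8 rose with bleomycin without doxycycline and 6 with it. Under total-count scaling the first count was 6 higher and 2 lower. Lysosomal members were among them. SLC17A5 (sialin), which exports sialic acid from lysosomes, rose from 63.7 and 58.7 to 170.1 and 167 CPM and from 66.3 and 65.7 to 144 and 167 with doxycycline (2.75-fold and 2.36-fold), and doxycycline was called for it in neither state. The lysosomal peptide carriers SLC15A3 and SLC15A4 both rose with bleomycin, to 18.0 and 17.1 CPM from 5.05 and 5.51 and to 48.2 and 49.7 from 31.6 and 32.4, and went apart with doxycycline. In senescent cells SLC15A3 fell with doxycycline to 5.63 and 6.43 CPM (2.91-fold lower, log2 change -1.54, SE 0.130, edgeR adjusted p = 1.55e-07) and SLC15A4 rose to 68.2 and 73.8 (log2 change 0.54, SE 0.0794, edgeR adjusted p = 5.19e-05). SLC15A3 also fell in proliferating cells, a call lost without untreated library 2 (edgeR adjusted p = 0.0827).

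At the plasma membrane, SLC22A4 (OCTN1), the ergothioneine carrier, was high in senescent cells without doxycycline alone: 5.05 and 4.76 CPM in untreated proliferating cells, 4.65 and 5.15 with doxycycline, 10.5 and 14.1 in senescent cells and 5.83 and 5.54 in doxycycline-treated senescent cells. The response to doxycycline was called in senescent cells (log2 change -1.11) and differed from that in proliferating cells (log2 difference -1.11, SE 0.223, edgeR adjusted p = 0.00269). SLC22A5 (OCTN2), the carnitine carrier, rose with bleomycin from 8.59 and 9.39 to 12.4 and 12.6 CPM. SLC14A1, a urea channel-like carrier, fell with doxycycline in both states, 70.3 and 71.8 to 46.0 and 45.6 and 63.6 and 65.8 to 42.4 and 37.6 CPM (log2 changes -0.64 and -0.69), and was called in neither bleomycin comparison. SLC18A2, the vesicular monoamine carrier, rose with doxycycline in senescent cells from 6.41 and 4.59 to 10.5 and 9.76 CPM, with 52.0% of its exon bases shared with PDZD8.

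Among 9 carriers of lipids, acetyl-CoA and heme, 2 rose and 1 fell with bleomycin without doxycycline, and 4 rose with it. SLC33A1, which brings acetyl-CoA into the endoplasmic reticulum, rose from 29.2 and 27.3 to 53.5 and 51.4 CPM (log2 change 0.89, SE 0.0822, edgeR adjusted p = 1.64e-07), and 21.2% of its exon bases are shared with AC104472.3. SLC27A4 (FATP4), a fatty acid carrier and acyl-CoA synthetase, rose with doxycycline in senescent cells from 18.6 and 21.7 to 32.1 and 30.2 CPM and read 27.0 and 26.3 and 33.7 and 34.2 in proliferating cells without and with doxycycline. SLC10A7 fell with doxycycline in senescent cells, 10.2 and 11.6 to 6.52 and 7.66 CPM. SLC48A1, which moves heme out of lysosomes and endosomes, rose with doxycycline in senescent cells from 13.3 and 11.6 to 17.7 and 16.8 CPM (log2 change 0.47, edgeR adjusted p = 0.00208).

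The 5 members of the SLC35 family that met the naming pattern include the Golgi carriers of sugar donors for glycosylation. SLC35A1, which carries CMP-sialic acid, read 22.1 and 22.1 CPM in untreated proliferating cells, 30.9 and 27.5 with doxycycline, 30.5 and 26.5 in senescent cells and 45.7 and 41.6 in doxycycline-treated senescent cells, and SLC35A3, which carries UDP-N-acetylglucosamine, read 23.4 and 22.2 CPM in untreated proliferating cells, 29.1 and 32.0 with doxycycline, 32.5 and 33.0 in senescent cells and 53.4 and 54.9 in doxycycline-treated senescent cells. Both were highest in senescent cells with doxycycline (log2 change with doxycycline there 0.61 and 0.73), and 55.5% of the exon bases of SLC35A1 are shared with AL049697.1. SLC35A4, the member with the most counts, fell with bleomycin, 67.5 and 69.8 to 54.7 and 60.6 CPM and 69.7 and 67.2 to 52.4 and 54.2 with doxycycline, and the first call was lost without untreated proliferating library 1 (0.0535), untreated proliferating library 2 (0.114) or senescent library 1 (0.112) by edgeR's test. SLC66A2 and SLC66A3, which have no settled substrate, fell with bleomycin without doxycycline, from 32.8 and 32.1 to 25.5 and 23.0 and from 74.0 and 79.5 to 56.0 and 52.0 CPM.

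**Figure D5:**
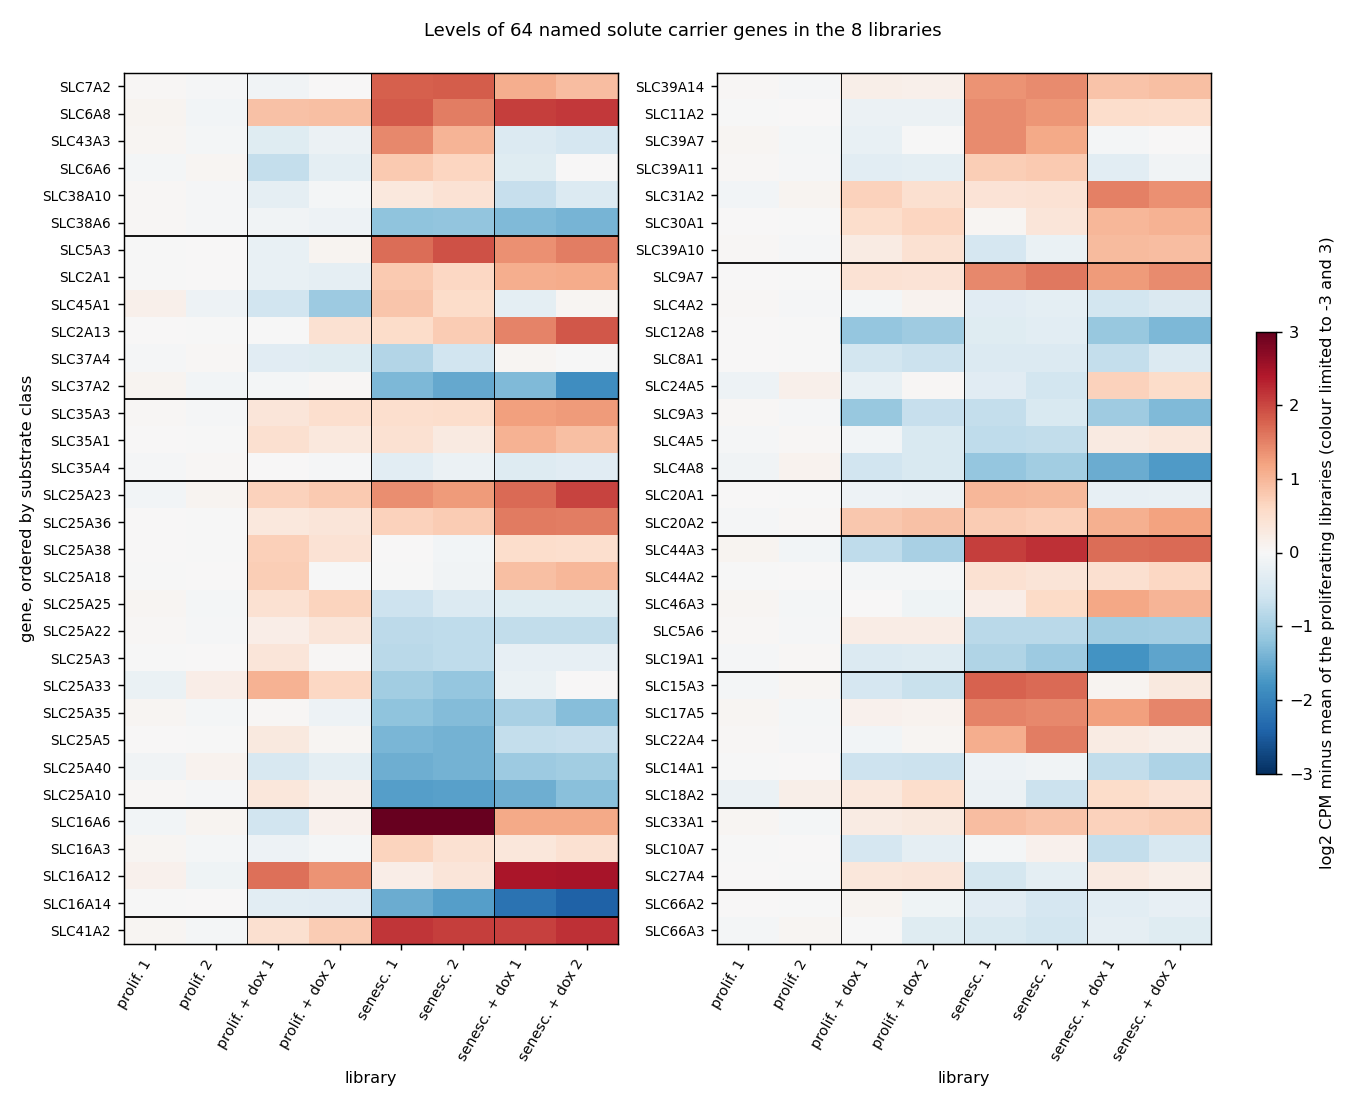
Log2 CPM of 64 named solute carriers in the 8 libraries, each minus the mean of the 2 untreated proliferating libraries, with black lines between substrate classes and the colour limited to -3 and 3. Library pairs of a group look alike, SLC16A6 is the darkest red in the senescent libraries without doxycycline, and SLC16A14 the darkest blue in those with it.

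Accessory and related genes moved with no single direction. Of 8 accessory subunits and regulators of carriers, 2 rose and 3 fell with bleomycin without doxycycline, 3 and 3 with it, and doxycycline left 3 higher and 1 lower in proliferating and 4 and 3 in senescent cells. EMB, the partner of SLC16A7, rose with doxycycline in senescent cells from 0.140 and 0.274 to 1.09 and 1.29 CPM. Of 15 tested carriers under other symbols, such as the organic anion SLCO family, 3 rose and 6 fell in either bleomycin comparison, 2 rose with doxycycline in proliferating cells, and 5 rose and 3 fell with it in senescent cells. The cholesterol exporter of lysosomes NPC1 went from 27.7 and 28.9 to 54.2 and 53.0 CPM with bleomycin and rose, and the cystine exporter CTNS from 43.5 and 45.7 to 33.4 and 34.2 and fell.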

How the data were processed

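RNA of 8 libraries (4 groups of 2, named by the titles and described above) was made into TruSeq Stranded mRNA libraries, per the labels' protocols. The deposited table holds raw read counts per gene. Per the submitters' processing notes, the authors used Trimmomatic 0.36, HISAT2 2.1.0 and featureCounts 1.6.3 with hg38. Which annotation and strand setting they counted with is not given in the sources used here. Reads of overlapping genes may thus not be told apart, and 19 members share 20% or more of their exon bases with another gene in GENCODE 29.

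Counts were filtered with filterByExpr (17155 of 54628 genes kept), scaled by TMM and fitted in edgeR 4.0.16 (R 4.3.3) with 4 groups and 4 residual degrees of freedom, then tested with the robust quasi-likelihood test and Benjamini-Hochberg adjustment over all genes tested. The biological coefficient of variation was 0.0904. CPM is counts per 1000000 of the TMM-scaled library size. The scripts were tested on simulated data. Alternatives were DESeq2 1.42.0, limma 3.58.1 voom, other scalings, no filter, replicate blocks and leaving out each library.

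Members, substrate classes and the lists of related genes were chosen with earlier results of these data known. The genes named were, per comparison, the 8 largest rises and 8 largest falls among members called at a mean log2 CPM of at least 2 whose libraries did not overlap. To these were added 5 in each direction for the difference between states and, per class, the 3 largest called changes with a mean log2 CPM of 1 or more and the gene with the most counts. This gave 64 genes. Others named beside them were chosen after their values were seen. RefSeq positions were found for 178 members. Some members are not reported here.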

Additional observations from a re-analysis of the deposited data

Results flagged for a closer look

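Among the genes named by the rule, 28 had a response to doxycycline that differed between senescent and proliferating cells by the interaction term of edgeR's fit at an adjusted p under 0.05. A more negative log2 response in senescent cells was measured for 16: SLC16A6 (-1.89), SLC43A3 (-1.44), SLC39A7 (-1.19), SLC22A4 (-1.11), SLC20A1 (-1.05), SLC15A3 (-0.95), SLC38A10 (-0.75), SLC7A2 (-0.75), SLC11A2 (-0.68), SLC39A14 (-0.67), SLC39A11 (-0.66), SLC9A7 (-0.58), SLC6A8 (-0.49), SLC20A2 (-0.46), SLC33A1 (-0.45) and SLC5A6 (-0.44). A more positive one was measured for 12: SLC4A5 (1.32), SLC24A5 (1.15), SLC37A4 (1.10), SLC39A10 (0.92), SLC2A13 (0.77), SLC25A40 (0.77), SLC46A3 (0.76), SLC2A1 (0.66), SLC25A5 (0.51), SLC25A36 (0.48), SLC8A1 (0.45) and SLC31A2 (0.42).

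Leaving out each library in turn kept the call for 20 of the 28. The call was lost in at least 1 omission for SLC20A2, SLC2A13, SLC31A2, SLC33A1, SLC46A3, SLC5A6, SLC6A8 and SLC8A1, with highest edgeR adjusted p-values of 0.0679, 0.150, 0.280, 0.0999, 0.166, 0.114, 0.131 and 0.171. Total-count scaling removed those of SLC20A2, SLC33A1, SLC5A6 and SLC6A8, at 0.0823, 0.130, 0.163 and 0.131. Zinc carriers were on both sides, with SLC39A7, SLC39A11 and SLC39A14 more negative and SLC39A10 more positive.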

How the results depend on the processing

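Setting aside the omission of single libraries, counts of called members kept within 1.5 times of the values given, except in these settings. Total-count scaling left 26 lower with doxycycline in senescent cells and 36 with a higher response there. A block by the numbers in the descriptions left 8 lower with doxycycline in proliferating cells. Some counts moved by more than 1.5 times when 1 library was left out. Leaving out 1 library gave, higher and lower, 63 to 80 and 43 to 56 members for bleomycin without doxycycline, 71 to 82 and 33 to 43 with it, 17 to 35 and 8 to 24 for doxycycline in proliferating and 45 to 62 and 32 to 49 in senescent cells, and 10 to 24 and 16 to 28 for the difference between states. With a replicate block by title number, the same counts were 79 and 55, 84 and 43, 37 and 25, 60 and 43, and 23 and 25. Same-numbered libraries deviated together at correlations of -0.0121 to 0.159, so the numbers were not taken to pair them.

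Median changes of classes turned sign with total-count scaling for lipids (0.03 to -0.14) and ions (0.07 to -0.10) after bleomycin without doxycycline, and for amino acids, carboxylates, organic ions, ions and vitamins with doxycycline in senescent cells (to 0.01, 0.08, 0.12, 0.00 and 0.15). For the 93 gene and comparison pairs picked by the naming rule, 1571 values were computed under 17 alternatives, of which 1549 kept their direction and call, 22 lost the call and 0 reversed. Other changes of the same genes lost calls more often, as given beside them. Calls that no single omission removed were, higher and lower, 58 and 37 for bleomycin without doxycycline, 63 and 31 with it, 17 and 5 for doxycycline in proliferating and 39 and 28 in senescent cells. With 2 libraries a group, SLC6A17 and other genes near 1 CPM were limited by depth.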

Other observations

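Some members near the level rule changed by large factors. SLC44A3 went from 0.765 and 0.655 CPM in doxycycline-treated proliferating to 4.13 and 4.20 in doxycycline-treated senescent cells, a log2 change of 2.55. SLC39A8 and SLC6A17 went from 0.177 and 0.194 and from 0.382 and 0.364 to 1.32 and 1.29 and 2.70 and 4.78 CPM there, but they met the level rule only through the latter group, so a rise follows from how they were chosen. SLC13A3, the dicarboxylate carrier, read 0.868 and 1.16 CPM in senescent cells and 1.94 and 3.05 with doxycycline, a rise lost without doxycycline-treated senescent library 2 (0.0707) by edgeR's adjusted p. SLC2A14, the copy of SLC2A3, went from 1.37 and 2.01 to 4.48 and 3.19 CPM there and moved in the direction of SLC2A3, with which it may share reads. SLC29A2 (ENT2), a nucleoside carrier, fell with doxycycline in proliferating cells from 1.61 and 1.23 to 0.647 and 0.777 CPM, a call lost without untreated proliferating library 1 (0.233) or doxycycline-treated proliferating library 1 (0.114). SLC25A45, a mitochondrial carrier of low level, read 1.06 and 0.898 CPM with doxycycline in proliferating and 2.29 and 1.51 in senescent cells (log2 change 0.96, SE 0.280, edgeR adjusted p = 0.00842 for bleomycin).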
